A study of Mus musculus with 16 samples.

Results

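Mouse brain tumours that had lost both p53 and RBPJ were compared by whether PDGF-B had been supplied. Set against each other were 4 arrays of tumours without it and 4 arrays of tumours with it. The 8 arrays were taken by their sample titles, p53-/-RBPjk-/- tumor and PDGF+p53-/-RBPjk-/- tumor, from a series of 16. The tumours without added PDGF, called p53-RBPJ below, arose after an inducible Cre from a Hes5::CreERT2 transgene had removed floxed alleles of both genes from Hes5-expressing cells. The tumours with PDGF, called PDGF-p53-RBPJ, were started by a retrovirus that makes PDGF-B and Cre from 1 transcript (PDGF-IRES-Cre), in animals with the same pair of floxed genes. Both groups therefore share the loss of p53 and RBPJ, and the added ligand, the virus and the cells reached by Cre cannot be told apart in this contrast. The other 8 arrays were 4 of PDGF+p53-/- tumours and 4 of normal brain with none of these changes. Those tumours, called PDGF-p53, came from the same retrovirus and were wild type for RBPjk. All animals were euthanized once they behaved as if ill from a tumour, and the tumour tissue was dissected under the green fluorescence of a Cre-dependent reporter, so that blood, vessel and host brain cells could come with it. The labels name replicates 1 to 4 in each group without saying that they are separate animals, and they give no age or strain. The p-values therefore reflect variation among these arrays only, which may be technical where arrays share an animal.

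PDGF-B is a growth factor that binds the receptor tyrosine kinases PDGFRA and PDGFRB, and the activated receptors feed the RAS-ERK and PI3K pathways. In the brain PDGFRA marks oligodendrocyte precursor cells, and PDGF keeps these cells dividing and immature. RBPJ is the DNA-binding partner through which Notch receptors switch on genes such as Hes5, and Hes5 marks neural stem cells.

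Values are RMA log2 intensities, on which a difference of 1 is a 2-fold change, and differences below are p53-RBPJ minus PDGF-p53-RBPJ. A gene was called where limma's moderated test gave a Benjamini-Hochberg adjusted p under 0.05 over 19938 genes. Of these, 651 were called (3.27%). They split into 127 genes that were higher without PDGF (0.637%) and 524 that were lower (2.63%). At 2-fold or more there were 37 higher genes (0.186%) and 183 lower genes (0.918%), or 220 in all (1.1%). The arrays of both groups did not overlap for 1932 genes (9.69%), 686 of them higher (3.44%) and 1246 lower (6.25%), and 590 genes were both called and apart (2.96%). The median difference over all genes was -0.01, and 48.3% of the genes had a positive difference. When each array was centred on 10 housekeeping genes that median moved to 0.13, and the calls split into 203 higher and 201 lower. That centring moves every gene of an array alike. In the other settings run, lower genes outnumbered higher ones, with 13.1% to 38.0% of the calls being higher. The number of calls depended on single arrays: it was 362 without p53-RBPJ replicate 3, 396 without p53-RBPJ replicate 4, 238 without PDGF-p53-RBPJ replicate 1, 313 without PDGF-p53-RBPJ replicate 2 and 176 without PDGF-p53-RBPJ replicate 3.

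The sex of the animals moved with the contrast. Xist, the RNA of the inactive X chromosome, lay between 11.30 and 11.54 in all 4 p53-RBPJ arrays. In the PDGF-p53-RBPJ group it was 11 in replicate 3 and between 4.22 and 4.66 in the other 3, and the Y-linked gene Uty was high in exactly those 3. Both patterns thus occurred within the PDGF-p53-RBPJ group, so at least 2 animals stand behind its arrays. With a term for this pattern in the fit, called the sex term below, 61 genes were called, 60 of them among the 651. The pattern largely follows the groups, so the term also lowers the precision of the contrast. A call can then be lost without a smaller difference. In lists described below, neuron and ion channel medians were -0.72 and -0.63 without the term and -0.80 and -0.53 with it. Those of cholesterol and mesenchymal glioma genes were -0.60 and -0.40 without it and -0.50 and -0.57 with it. What part sex has in the differences was not tested.

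The 15 largest rises and 15 largest falls among called genes with no overlap between groups are shown in the dot plot of leading genes. The receptor tyrosine kinase gene Kit led the rises, at 11.09, 10.63, 8.27 and 10.94 in the 4 p53-RBPJ arrays and 7.67, 7.99, 7.56 and 8.11 in the PDGF-p53-RBPJ arrays. Its difference was 2.40 ± 0.46 (SE, n = 4 per group, limma adjusted p = 0.00987), with p53-RBPJ replicate 3 close to the other group. Foxd1, a forkhead transcription factor, read 5.73, 7.56, 7.0 and 7.37 against 4.84, 4.64, 4.66 and 4.47 (2.27 ± 0.32, limma adjusted p = 0.00147). All 4 arrays without PDGF lay above all 4 with it. Rlbp1, a retinaldehyde-binding protein of Müller and other glia, was at 10.14, 10.06, 9.70 and 9.51 against 7.69, 7.63, 8.0 and 8.91 (1.80 ± 0.25, limma adjusted p = 0.00147), with PDGF-p53-RBPJ replicate 4 nearest to the tumours without PDGF. The glutathione transferase gene Mgst1 stood at 7.58, 7.58, 8.77 and 7.59 against 6.2, 6.05, 6.24 and 5.98 (1.76 ± 0.22, limma adjusted p = 0.000651). Fzd7, a Wnt receptor, was at 8.29, 8.62, 8.52 and 8.76 against 6.74, 7.36, 7.07 and 7.79 (1.31 ± 0.19, limma adjusted p = 0.00201), and its call held in every alternative run, one of which had a single PDGF-p53-RBPJ array and took its spread from the other groups. Kif21a (1.76), a kinesin motor, and Shtn1 (1.52), an adaptor that links actin to axon growth, were called with every single array left out.

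Further leading rises were more fragile. Pdlim3 (2.26), a muscle Z-disc protein, lost its call without PDGF-p53-RBPJ replicate 1 or 3 (adjusted p up to 0.0602), and Cd24a (1.98), a surface protein of immature neurons and epithelia, without p53-RBPJ replicate 3 or PDGF-p53-RBPJ replicate 1 or 3 (up to 0.0838). Cpxm2 (1.75), a carboxypeptidase-like protein, lost it without p53-RBPJ replicate 4 or PDGF-p53-RBPJ replicate 1, 2 or 3 (up to 0.0709). Atp6v0d2 (1.76), a proton pump subunit, stayed called only without p53-RBPJ replicate 2, 3 or 4 (up to 0.119). Slc5a7 (1.89), the choline transporter, stayed called only without p53-RBPJ replicate 2 or 4 (up to 0.119), Exoc1 (2.21), an exocyst subunit, only without p53-RBPJ replicate 1 or 3 (up to 0.143), and Pde1c (1.31), a phosphodiesterase, only without p53-RBPJ replicate 1 or PDGF-p53-RBPJ replicate 4 (up to 0.13). Exoc1 and Kit lie in the same run of raised neighbouring genes, described below. With the sex term Foxd1, Rlbp1, Mgst1 and Fzd7 kept their calls (adjusted p 0.0384, 0.0265, 0.0157 and 0.0265), while Kit (0.0692) and the others named in these sentences did not.

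**Figure D1:**
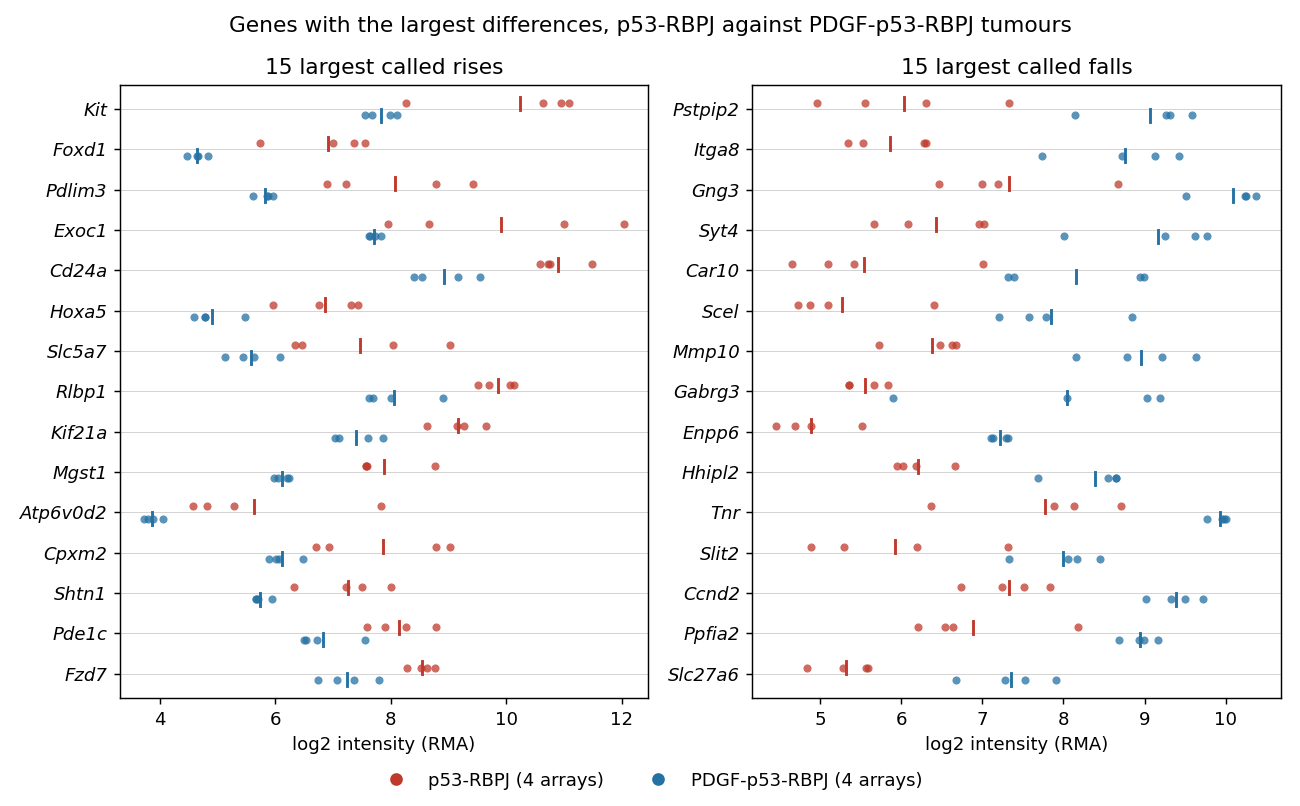
RMA log2 intensity (x axis) of the 15 largest called rises (left) and 15 largest called falls (right). Each point is 1 array, red for p53-RBPJ and blue for PDGF-p53-RBPJ, and each vertical tick is the mean of 4 arrays. The groups do not overlap for any gene shown, as the choice of genes required.

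The falls were larger. Pstpip2, an adaptor of the actin skeleton best known from macrophages, was at 4.96, 6.31, 5.55 and 7.33 without PDGF against 9.58, 9.26, 9.31 and 8.14 with it (-3.04 ± 0.43, limma adjusted p = 0.00147). Replicate 4 of either group lay nearest to the other group. Itga8, an integrin chain, read 6.30, 6.28, 5.53 and 5.34 against 9.13, 8.72, 9.42 and 7.74 (-2.89 ± 0.43, limma adjusted p = 0.00207). Gng3, a neuronal G protein subunit, read 7.19, 6.46, 7.0 and 8.67 against 10.38, 10.25, 10.24 and 9.51 (-2.76 ± 0.35, limma adjusted p = 0.000651). Mmp10, a secreted matrix protease, was at 6.68, 5.73, 6.62 and 6.48 against 9.22, 8.78, 9.64 and 8.16 (-2.57 ± 0.43, limma adjusted p = 0.00433). For these 3 genes the groups lay well apart except for Gng3 in replicate 4 of each. Also lower, and called with every single array left out, were Syt4 (-2.73), a vesicle protein, Car10 (-2.62), a synaptic organiser related to carbonic anhydrases, Scel (-2.58), a protein of cornified epithelia, Hhipl2 (-2.18) and Slc27a6 (-2.03), a fatty acid transporter. Slit2 (-2.08), an axon guidance ligand, lost its call without p53-RBPJ replicate 4 or PDGF-p53-RBPJ replicate 1, 2 or 3 (adjusted p up to 0.0692), and Gabrg3 (-2.49), a GABA receptor subunit, kept it only without PDGF-p53-RBPJ replicate 4 (up to 0.166). The sex term left Pstpip2, Itga8, Gng3 and Mmp10 called (adjusted p 0.036, 0.036, 0.018 and 0.0157) and ended the calls of the other genes named here.

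The genes engineered in the models were read next. Pdgfb was at 5.76, 5.37, 5.77 and 5.23 without the retrovirus and at 6.19, 5.88, 6.05 and 5.97 with it. The medians of the arrays lay between 5.97 and 6.06. The 4 arrays of one group lay below the 4 of the other, with a difference of -0.49 ± 0.15 (limma adjusted p = 0.0962, exact two-sided permutation p = 0.0286, the smallest that 4 against 4 allows). Normal brain lay between 5.69 and 6.2, and whether the probe set reads the viral transcript is not given in the sources used here. Rbpj was at 7.76, 7.64, 7.81 and 7.93 against 7.69, 7.88, 7.55 and 7.81 (0.05 ± 0.13, limma adjusted p = 0.887), and the groups overlapped. Whether that probe set lies inside the floxed part is not given in the sources used here, so it does not check the deletion. The p53 gene itself was not analysed here.

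Among 12 genes on a list of Notch targets and related genes none was called, and their median difference was 0.09. Gas1 is also on the hedgehog list, and not every member is a direct target of RBPJ. Hes6, an inhibitor of Hes1, had the largest difference (0.61, limma adjusted p = 0.0697), then Gas1 (0.42), Nrarp (0.26), Hey1 (-0.23), Hey2 (0.18), Nepro (-0.18), Hes7 (0.16), Dtx1 (-0.15), Hes5 (0.14), Fabp7 (-0.09), Heyl (0.04) and Hes1 (0.02). Gas1 had no overlap on the higher side and Hey1 none on the lower side, against 3.44% and 6.25% of all genes. Hes5, whose promoter drives Cre in the p53-RBPJ model, was at 6.78, 6.87, 6.64 and 6.97 against 6.61, 6.72, 6.65 and 6.72. The groups overlapped for Hes5. None of 24 Notch receptors, ligands and cofactors was called either, the lowest p being those of Mib1 (-0.58, limma adjusted p = 0.0759), which activates ligands, and of the ligand gene Dll1 (0.75, limma adjusted p = 0.0923).

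In the PDGF axis single arrays without PDGF differed widely from each other, and 1 of 7 genes was called, against 3.27% of all genes. Pdgfra was at 13.03, 12.75, 10.77 and 12.78 without PDGF and at 11.72, 11.73, 11.64 and 11.81 with it. Replicates 1, 2 and 4 without PDGF lay above and replicate 3 below the narrow group with PDGF, so the difference of 0.61 ± 0.33 was not called (limma adjusted p = 0.374). Pdgfa, which encodes another ligand of PDGFRA, was at 10.70 in p53-RBPJ replicate 1 and at 7.18, 6.95 and 7.28 in replicates 2, 3 and 4, against 7.13, 7.32, 7.19 and 7.23 with PDGF. Its difference (0.81, limma adjusted p = 0.5) came from that 1 array and was -0.08 without it. Of the other ligands and receptors, Pdgfc was at 7.36, 6.72, 6.84 and 6.58 against 7.36, 7.32, 7.49 and 7.62 (-0.57, limma adjusted p = 0.0557). Pdgfd (-0.18) and the receptor-like Pdgfrl (0.35) were not called. Pdgfrb, the receptor of pericytes, was lower at 5.96, 5.54, 6.24 and 5.85 against 6.33, 6.95, 6.83 and 6.61 (-0.79 ± 0.18, limma adjusted p = 0.0238). That call was lost without p53-RBPJ replicate 2 or 4 or PDGF-p53-RBPJ replicate 2 or 3 (adjusted p up to 0.0902) and with the sex term (0.0675).

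**Figure D2:**
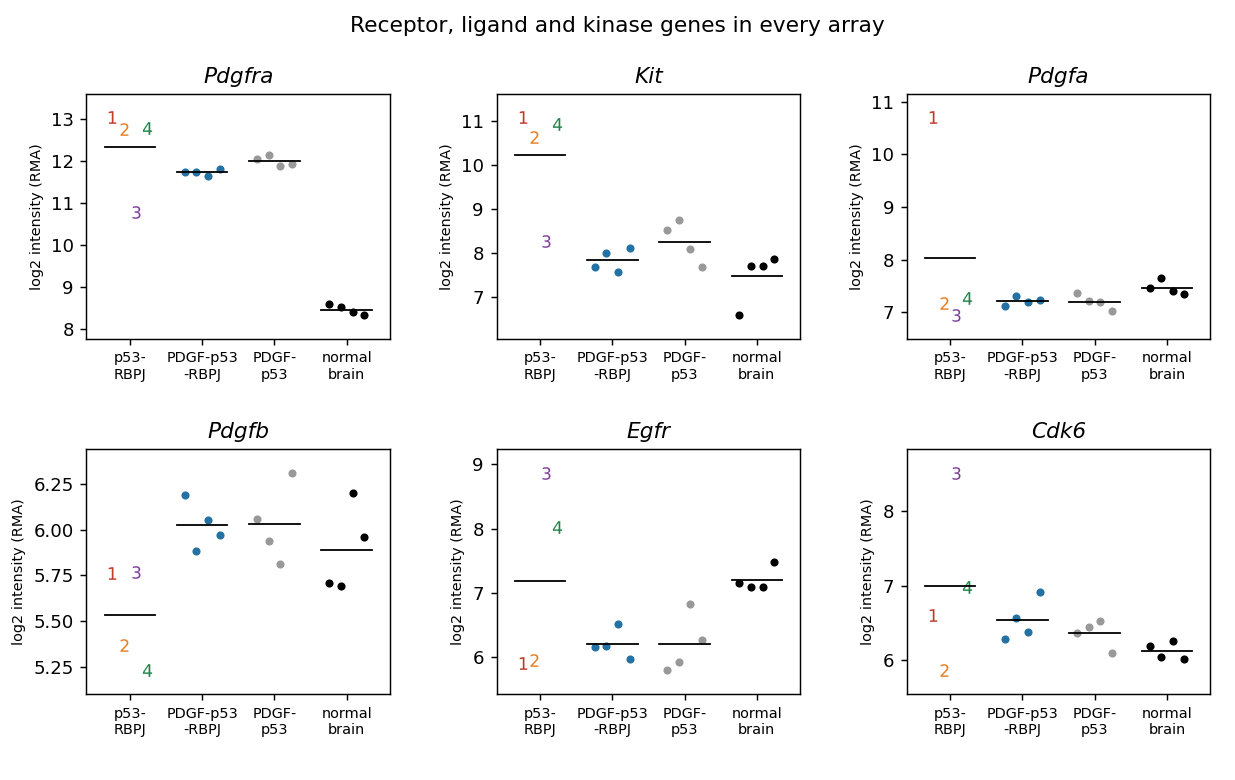
RMA log2 intensity (y axes, each panel with its own range) of 6 genes in the 4 groups on the x axis. Digits mark p53-RBPJ replicates 1 to 4, points the arrays of the other groups, and lines the group means. Pdgfra and Kit were high in p53-RBPJ replicates 1, 2 and 4, Pdgfa in replicate 1, Egfr in replicates 3 and 4, and Cdk6 in replicate 3.

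Kit and Pdgfa lay in runs of neighbouring raised genes, while Egfr and Cdk6 were in no run. A run was taken as at least 4 genes, no more than 3 places apart in the order of the GRCm38.p6 reference gene table, that each deviated in 1 array by at least 1.5 from the median of the 12 tumour arrays. This rule and the genes picked from the runs were chosen after the values were seen and carry no test, and DNA copy number was not measured. In p53-RBPJ replicate 2 a run from Chic2 to Ppat on chromosome 5, which includes Kit, held 14 such genes of 16, with a median deviation of 3.10. Its highest member was Nmu, which encodes neuromedin U, at 11.59 against 3.94 to 4.61 in the PDGF-p53-RBPJ arrays. In replicate 4 the run covered Kit to Clock, 4 genes of 5, with a median deviation of 2.61. Replicate 1 was high for Chic2 (10.75) and Kit and near the tumours with PDGF for Ppat (9.30). Pdgfra lies between Chic2 and Kit, inside the span of the replicate 2 run. It deviated by 1.13, 0.86, -1.13 and 0.88 in p53-RBPJ replicates 1 to 4, under the cutoff of 1.5. Clock, the circadian transcription factor, shows the extent by array, at 9.64, 12.39, 8.46 and 11.57 without PDGF against 8.70 to 9.03 with it.

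In p53-RBPJ replicate 3, the array in which Pdgfra and Kit were not raised, the longest run went from Casc1 to Resf1 on chromosome 6 and held 33 genes of 37 at a median deviation of 3.07. Replicate 4 was raised over the same stretch by less, from Bcat1 to Arntl2 (10 genes of 16, median deviation 1.83) and from Ipo8 to Resf1 (7 of 8, 2.13). Stk38l, a kinase gene of the run, was at 8.76, 8.58, 12.22 and 10.60 against 8.55 to 8.77 with PDGF. Egfr, which encodes the epidermal growth factor receptor and lies on chromosome 11, was high in the same 2 arrays, at 5.91, 5.96, 8.87 and 8.02 against 5.97 to 6.51. Cdk6, a kinase of the G1 phase, reached 8.52 in replicate 3 and lay between 5.86 and 6.98 in the other 7 arrays. In replicate 1 the run from Zfp157 to Pdgfa on chromosome 5 held 4 genes of 6 at a median deviation of 3.6, with Fam20c, a secretory kinase, at 10.84 against 6.44 to 6.83. The raised runs thus differed between the arrays of the group. By the same rule the PDGF-p53-RBPJ arrays had 1 run, of 4 interferon-induced genes from Gm4951 to BC023105 in replicate 1. The median of the rule was drawn from more arrays with PDGF than without, so the groups were not counted on equal terms.

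**Figure D3:**
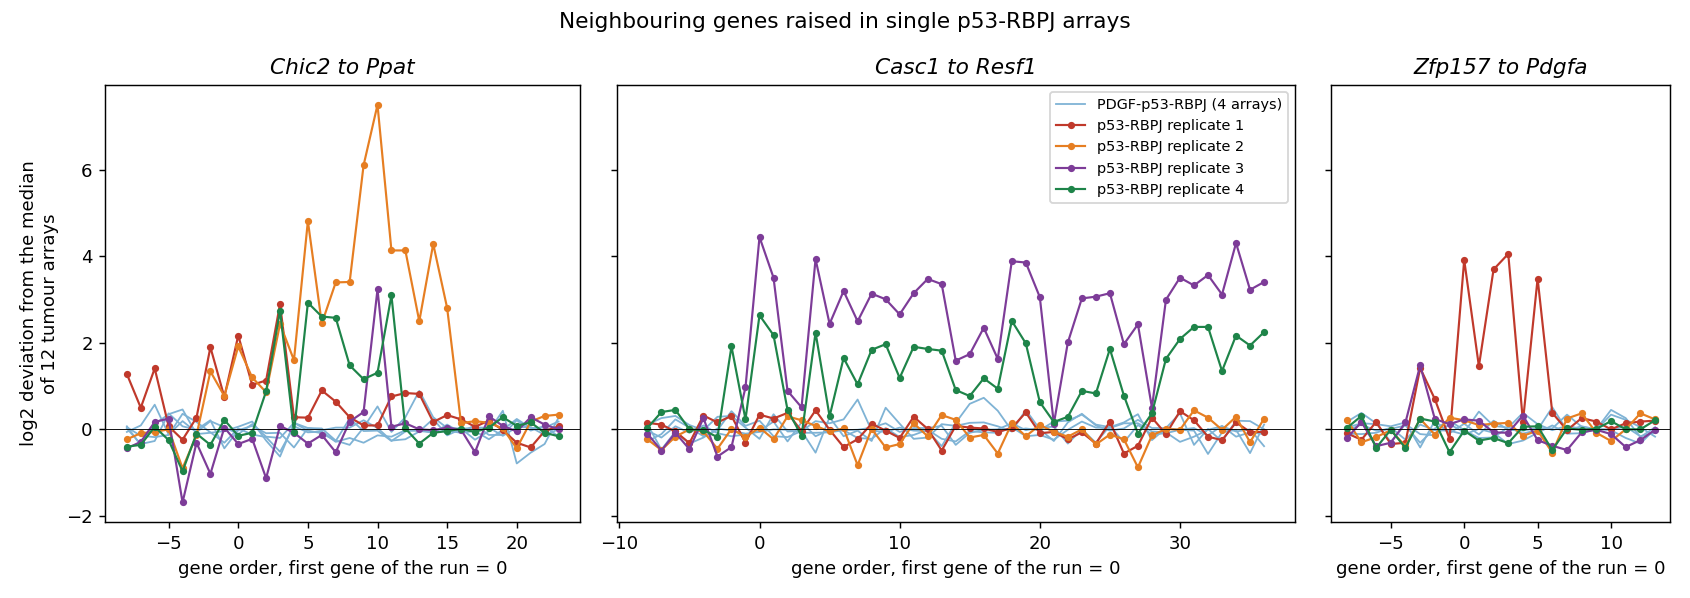
Log2 deviation from the median of the 12 tumour arrays (y axis) for neighbouring genes in reference order (x axis, first gene of the run at 0). Lines with points are the 4 p53-RBPJ arrays and thin blue lines the 4 PDGF-p53-RBPJ arrays. Replicate 2, and in part replicates 1 and 4, rose over the stretch with Kit, replicates 3 and 4 over the stretch from Casc1 on, and replicate 1 over the stretch that ends at Pdgfa, while the blue lines stayed near 0.

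Whole chromosomes also differed. On chromosome 9, 134 of 1167 genes were called lower (11.5%), against 2.08% of the genes elsewhere, and 1 was called higher. Its genes above the median level lay -0.42, -0.18, -0.30 and -0.40 from normal brain in the p53-RBPJ arrays (median per array) and 0.01, 0.06, 0.03 and -0.07 in the PDGF-p53-RBPJ arrays. On chromosome 18, 59 of 471 genes were called lower (12.5%) and 4 higher (0.849%), with medians of -0.40, -0.50, -0.50 and -0.38 against 0.11, 0.07, 0.10 and -0.32. On chromosome 18 PDGF-p53-RBPJ replicate 4 thus lay near the tumours without PDGF. The PDGF-p53 arrays were at -0.32, 0.19, -0.05 and -0.03 there. On chromosome 16, 3.85% of the genes were called lower, and the groups overlapped (0.09, -0.20, -0.20 and -0.42 against 0.01, 0.10, 0.09 and -0.01). Chromosome 4 was shifted the other way (0.22, 0.24, 0.19 and 0.17 against 0.05, 0.12, 0.06 and 0.16). Chromosome 12 was low in p53-RBPJ replicate 3 only (-0.65). With each array centred per chromosome, an alternative added after these values were seen, 432 genes were called, 164 higher and 268 lower, and 338 of them were among the 651. Of 95 called genes taken by the naming rule it ended the calls of 36, namely Atp6v0d2, Slc5a7, Exoc1, Gabrg3, Pdgfrb, Pik3cb, Vcan, Kcna1, Aqp4, Irx2, Irx5, Ptch1, Sc5d, Pmvk, Fdps, Elovl5, Elovl6, Timp1, Stat3, Tnfrsf1a, Abcg2, Mcam, Tagln, Plxna4, Sox21, Stmn1, Nrxn3, Ncam1, Gabrb2, Grik4, Fgf12, Cdkn2d, Id2, Pkm, Cox5a and Atp5a1, and also those of Fdft1 and Kcnd3. The part of the chromosome shifts in these calls was not tested.

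**Figure D4:**
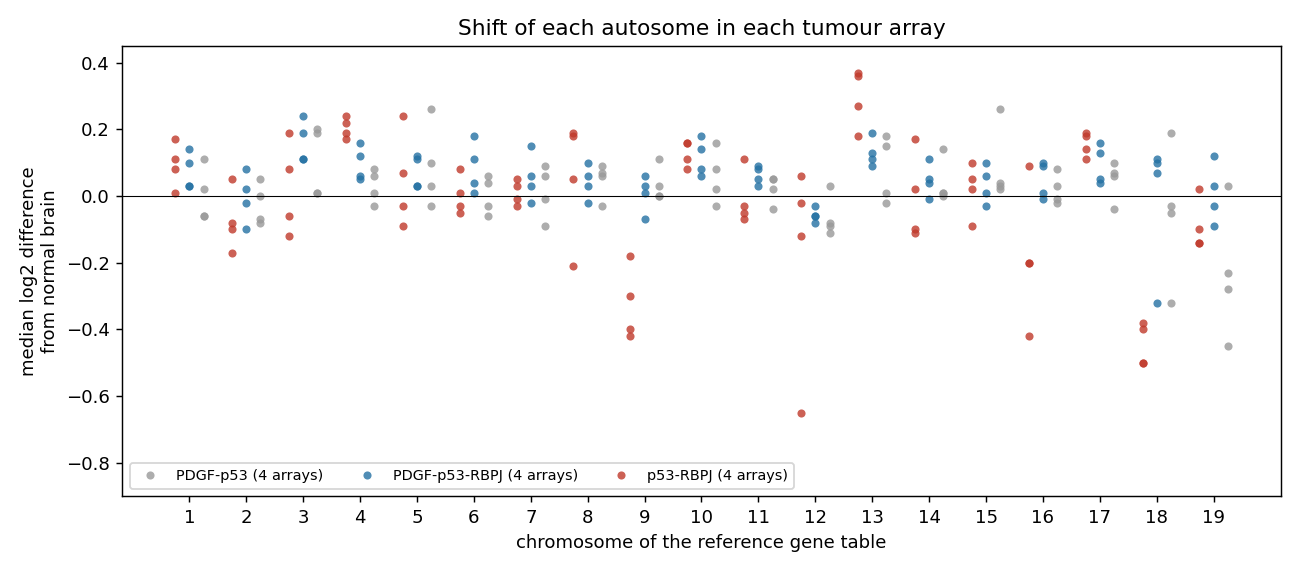
Median log2 difference from the mean of normal brain (y axis) over the genes of each autosome (x axis) whose level lies above the median of all genes. Each point is 1 tumour array, red for p53-RBPJ, blue for PDGF-p53-RBPJ and grey for PDGF-p53. On chromosomes 9 and 18 all 4 red points lie below all 4 blue ones, and on chromosome 12 only 1 red point is low.

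A few genes of the signalling downstream of the receptors were lower without PDGF. Of 15 negative-feedback genes and other direct products of ERK activity, 3 were called lower and none higher, 13 of 15 had negative differences and the median was -0.49. Over all genes 2.63% were called lower, and the median was -0.01. The largest positive difference was that of Etv5 (0.54, limma adjusted p = 0.158), a transcription factor induced by ERK. Spry4, a Sprouty inhibitor of receptor signalling, was at 6.59, 6.54, 5.70 and 6.83 against 8.03, 7.70, 7.77 and 7.34 (-1.30 ± 0.24, limma adjusted p = 0.00795). Phlda1, an early response gene, was at 9.22, 8.74, 8.36 and 8.96 against 9.98, 9.76, 10.14 and 10.20 (-1.20 ± 0.17, limma adjusted p = 0.00147). The groups did not overlap for either gene. Spred3 (-0.73, limma adjusted p = 0.032), a relative of the Sproutys, kept its call only without p53-RBPJ replicate 1 or PDGF-p53-RBPJ replicate 4 (up to 0.107). The RAS-family gene Mras was at 6.67, 7.11, 6.79 and 6.97 against 8.82, 8.81, 9.0 and 8.13 (-1.80 ± 0.20, limma adjusted p = 0.000651). It lies on chromosome 9 and stayed called after centring per chromosome (0.00114), whereas Pik3cb (-0.85), a PI3K catalytic subunit of the same chromosome, did not (0.0961). Mras was the only call among 14 genes of RAS and RAF signalling (median -0.11), and Pik3cb among 18 of PI3K and AKT (median -0.06). None of 21 immediate early genes was called, and their median was -0.25. With the sex term Phlda1 (0.0213) and Mras (0.0157) stayed called and Spry4, Spred3 and Pik3cb did not. With the housekeeping scale the feedback list had 2 lower calls and a median of -0.35.

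Of 8 G1 cyclin and CDK genes 2 were lower, against 2.63% of all genes, and both were D-type cyclins. Ccnd2 was at 6.74, 7.83, 7.24 and 7.51 against 9.5, 9.32, 9.72 and 9.02 (-2.06 ± 0.25, limma adjusted p = 0.000651), and Ccnd1 at 10.74, 10.78, 9.78 and 10.41 against 11.54, 11.29, 11.78 and 11.28 (-1.04 ± 0.19, limma adjusted p = 0.007). Neither had overlapping groups, both kept their calls with each array left out, and with the sex term Ccnd2 (0.0157) but not Ccnd1 (0.0555) was called. The 39 genes of the proliferation list, such as those of mitosis and DNA replication, gave no call. Their median difference was 0.05, and the mean of the list ran from 8.53 to 8.88 without PDGF and from 8.37 to 8.84 with it, against 5.67 to 5.84 in normal brain.

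The oligodendrocyte lineage was lower in part. In dissected tissue fewer cells of a type and less RNA per cell cannot be told apart. Among 24 measured genes of oligodendrocyte precursors 4 were called lower and 1 higher, with a median of -0.27 and 18 negative differences. Over all genes 2.63% were called lower and 0.637% higher, and the median was -0.01. Tnr, an extracellular protein of perineuronal nets, was at 7.88, 8.13, 6.37 and 8.71 against 9.98, 9.95, 10.01 and 9.77 (-2.16 ± 0.35, limma adjusted p = 0.0036). The values with PDGF were nearly equal, and replicate 3 was the lowest without it. Epn2, an endocytic adaptor, was at 7.62, 7.89, 7.24 and 8.02 against 9.0, 8.99, 9.04 and 9.19 (-1.36 ± 0.17, limma adjusted p = 0.000651), again with no overlap. The proteoglycan gene Ncan (-0.78, limma adjusted p = 0.0224) lost its call without p53-RBPJ replicate 2 or 4 or PDGF-p53-RBPJ replicate 2 or 3 (up to 0.0838), and Xylt1 (-0.89, limma adjusted p = 0.0266), which starts proteoglycan side chains, without p53-RBPJ replicate 3 or PDGF-p53-RBPJ replicate 1, 2 or 3 (up to 0.0902). Vcan, another proteoglycan, was higher (0.83, limma adjusted p = 0.0496), and kept that call only without PDGF-p53-RBPJ replicate 4 (up to 0.162). The mean of this list was lowest in p53-RBPJ replicate 3 (8.24), the array with the lowest Pdgfra, and ran from 8.75 to 8.78 in the other 3 and from 8.93 to 9.14 with PDGF. Without PDGF-p53-RBPJ replicate 2 or 3 the list had 2 lower calls, and so it did on the housekeeping scale. Of 14 genes of the next stage, precursors committed to differentiate, 2 were called lower. Enpp6, an early mark of that step, was at 4.69, 4.46, 4.89 and 5.51 against 7.11, 7.29, 7.13 and 7.32 (-2.33 ± 0.35, limma adjusted p = 0.00219), with the groups far apart. Bmp4 (-0.86, limma adjusted p = 0.0168) lost its call without PDGF-p53-RBPJ replicate 2 (0.0586). None of 17 myelin genes was called, though 16 had negative differences and the median was -0.35. The lowest p among them belonged to Ugt8a (-1.30, limma adjusted p = 0.0883), a myelin lipid enzyme, and Mag (-1.24, limma adjusted p = 0.0935). With the sex term Epn2 (0.018) and Enpp6 (0.0476) stayed called.

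Some neuronal genes were lower without PDGF. Of 33 measured neuron genes 6 were called lower and none higher, against 2.63% and 0.637% of all genes, and the median was -0.72. Camk2b, a synaptic kinase, was at 7.62, 7.26, 7.63 and 7.36 against 8.92, 8.74, 9.25 and 8.51 (-1.39 ± 0.17, limma adjusted p = 0.000651), and Gria2, an AMPA receptor subunit, at 10.78, 9.71, 9.94 and 10.24 against 11.48, 10.87, 11.32 and 11.20 (-1.05 ± 0.19, limma adjusted p = 0.00855). Outside that list but among the leading falls, Ppfia2, a liprin of synaptic release sites, was at 6.2, 6.54, 8.18 and 6.64 against 8.99, 8.69, 9.17 and 8.93 (-2.05 ± 0.30, limma adjusted p = 0.00179). None of the 3 had overlapping groups, though replicate 3 came near for Ppfia2. Syn1 (-0.98), a synapsin, lost its call without PDGF-p53-RBPJ replicate 3 (0.0529), and Npy (-1.82), a neuropeptide, without p53-RBPJ replicate 4 or PDGF-p53-RBPJ replicate 1 or 3 (up to 0.0661). The list had 3 lower calls without p53-RBPJ replicate 4 or PDGF-p53-RBPJ replicate 1, 2 without PDGF-p53-RBPJ replicate 3, and 4 on the housekeeping scale. Its mean ran from 6.43 to 7.31 without PDGF and from 7.03 to 7.99 with it, below normal brain (9.93 to 10.12) in both.

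Ion channel genes were lower in part as well. All 20 measured ion channel genes had negative differences, with a median of -0.63, and 5 were called, against 2.63% of all genes called lower. Cacna1d, a calcium channel, was at 7.04, 6.68, 6.53 and 6.62 against 7.40, 7.57, 7.49 and 7.53 (-0.78 ± 0.14, limma adjusted p = 0.00565). Scn3a (-1.38), an embryonic sodium channel, lost its call without PDGF-p53-RBPJ replicate 1 or 3 (up to 0.0586). The potassium channel genes Kcna1 (-0.79), Kcnd2 (-0.88) and Kcnd3 (-0.70) kept theirs in 3, 2 and 3 of the 8 fits that each left out 1 array, with adjusted p up to 0.0948, 0.0929 and 0.124. Kcna1 lost it without p53-RBPJ replicate 1, 2 or 4 or PDGF-p53-RBPJ replicate 3 or 4, Kcnd2 without p53-RBPJ replicate 2, 3 or 4 or PDGF-p53-RBPJ replicate 1, 2 or 3, and Kcnd3 without p53-RBPJ replicate 1 or 3 or PDGF-p53-RBPJ replicate 1, 2 or 3. Of 20 glutamate and GABA receptor genes 3 were called lower, with a median of -0.69, and 1 without p53-RBPJ replicate 4 or PDGF-p53-RBPJ replicate 1 or 3. The ion channel list had 1 call without PDGF-p53-RBPJ replicate 3, 2 without PDGF-p53-RBPJ replicate 1, 3 without p53-RBPJ replicate 2, 3 or 4 or PDGF-p53-RBPJ replicate 2, and 2 on the housekeeping scale, where its median was -0.50. Of the genes in this and the foregoing paragraph Camk2b (0.0157), Ppfia2 (0.0305) and Npy (0.0157) stayed called with the sex term. Astrocyte genes were lower for 2 of 21, Aqp4 (-1.47 ± 0.27, limma adjusted p = 0.00862), the water channel, and Acsbg1 (-1.08 ± 0.18, limma adjusted p = 0.00386), an acyl-CoA synthetase, with a median of -0.29. Aqp4 lies on chromosome 18 and was not called after centring per chromosome (0.0874), while Acsbg1, on chromosome 9, was (0.0468). Acsbg1 stayed called with the sex term (0.0327).

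**Figure D5:**
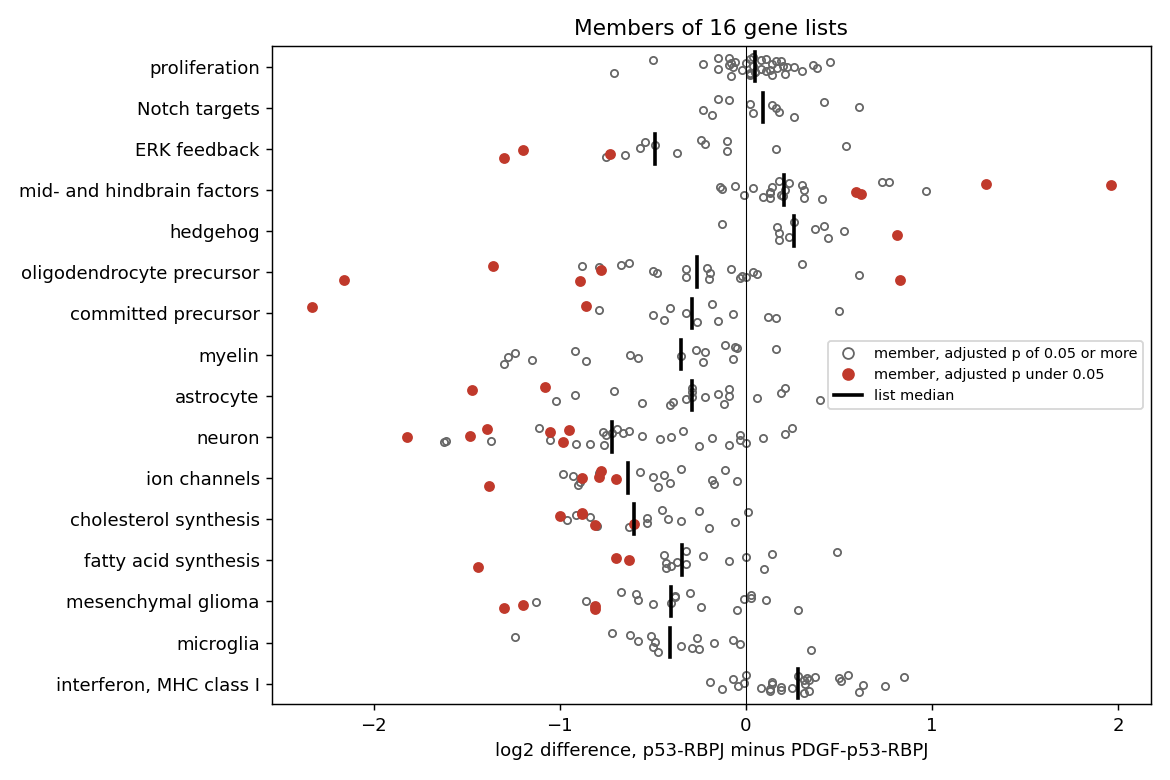
Log2 difference, p53-RBPJ minus PDGF-p53-RBPJ (x axis), of every measured member of 16 gene lists (y axis). Each circle is 1 gene, filled red where the adjusted p is under 0.05, and black ticks are list medians. Feedback genes of ERK, neuron, ion channel and cholesterol lists have medians of -0.49, -0.72, -0.63 and -0.60, and the 4 red circles of the mid- and hindbrain factors lie to the right of 0.

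A few regional transcription factors were higher without PDGF. Of 26 measured factors of midbrain, hindbrain and spinal cord 4 were called higher and none lower, against 0.637% and 2.63% of all genes, and 22 differences were positive (median 0.21). Hoxa5, a homeobox gene of the posterior axis, was at 7.43, 6.76, 5.97 and 7.31 against 4.59, 4.79, 4.78 and 5.48 (1.96 ± 0.30, limma adjusted p = 0.00279). It lay in a run of called neighbours from Hoxa2 to Hoxa13 on chromosome 6, in which 7 of 13 genes were called higher. Hoxa10, picked from that run after its values were seen, was at 5.30, 5.73, 5.57 and 5.91 against 4.34, 4.87, 4.79 and 4.53 (1.0 ± 0.17, limma adjusted p = 0.00416). Both genes had groups apart. All these values of Hoxa10, and those of Hoxa5 with PDGF, lay below the array medians of 5.97 to 6.06. Hoxa2 (1.29, limma adjusted p = 0.0189) overlapped, since PDGF-p53-RBPJ replicate 4 reached 6.12. Its call was lost without p53-RBPJ replicate 4 or PDGF-p53-RBPJ replicate 1, 2 or 3 (up to 0.0679). The Iroquois genes Irx2 (0.59) and Irx5 (0.62) kept their calls only without p53-RBPJ replicate 2 or 4, respectively, or PDGF-p53-RBPJ replicate 4 (up to 0.0773 and 0.144). The list held 1 call without PDGF-p53-RBPJ replicate 1, 2 or 3, 2 without p53-RBPJ replicate 3 or 4, 2 after centring per chromosome and 5 on the housekeeping scale. None of 14 forebrain factors was called (median -0.04). With the sex term Hoxa5 (0.0398) and Hoxa10 (0.0476) stayed called.

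Other developmental pathways gave few calls, where 0.637% of all genes were called higher and 2.63% lower. Of 11 hedgehog genes 10 had positive differences (median 0.26) and Ptch1, the receptor and target of the pathway, was called, at 8.21, 8.87, 9.45 and 9.22 against 7.98, 8.51, 7.98 and 8.05 (0.81 ± 0.21, limma adjusted p = 0.0412). The groups overlapped, and the call was kept only without p53-RBPJ replicate 1 or PDGF-p53-RBPJ replicate 2 (up to 0.135). Among 31 Wnt genes Fzd7 and Nkd1 (0.69), a feedback inhibitor, were higher, the second lost without p53-RBPJ replicate 3 or PDGF-p53-RBPJ replicate 1, 2 or 3 (up to 0.0795). Pax6 was at 7.05, 6.87, 6.98 and 6.97 against 6.08, 6.09, 6.04 and 6.30 (0.84 ± 0.19, limma adjusted p = 0.0253), the 1 call among 19 genes of neural stem cells and radial glia. Pax6 lost its call without p53-RBPJ replicate 3 or 4 or PDGF-p53-RBPJ replicate 1, 2 or 3 (up to 0.0902), and with the sex term of these genes only Fzd7 remained called.

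Some enzymes of cholesterol synthesis were lower without PDGF. Of 19 measured genes 5 were called lower and none higher, against 2.63% and 0.637% of all genes, 18 had negative differences, and the median was -0.60. Hsd17b7, a late enzyme of the pathway, was at 7.32, 7.32, 7.11 and 7.35 against 8.39, 8.31, 8.33 and 8.05 (-1.0 ± 0.18, limma adjusted p = 0.00765). Sc5d, which acts near its end, was at 7.51, 7.75, 7.38 and 7.17 against 8.59, 8.33, 8.30 and 7.83 (-0.81 ± 0.19, limma adjusted p = 0.0252). Neither had overlapping groups. Pmvk (-0.60, limma adjusted p = 0.0156), an early kinase of the pathway, lost its call without PDGF-p53-RBPJ replicate 1 (0.0519). Fdps (-0.88), Fdft1 (-0.88) and Sc5d kept theirs in 2, 2 and 3 of the 8 fits that left out 1 array, each being lost without p53-RBPJ replicate 3 or 4 or PDGF-p53-RBPJ replicate 1, 2 or 3 (up to 0.117, 0.152 and 0.0895), Fdps also without p53-RBPJ replicate 2 and Fdft1 without p53-RBPJ replicate 1. Hmgcs1, the synthase at the start of the pathway, was at 8.48, 8.03, 8.43 and 8.26 against 9.53, 9.41, 9.56 and 8.34 (-0.91 ± 0.26, limma adjusted p = 0.0664), with replicate 4 of the PDGF group at the level of the other group. PDGF-p53-RBPJ replicate 4 was the lowest of its group for Hsd17b7, Sc5d, Pmvk, Fdps, Fdft1 and Hmgcs1, and without it 10 genes of the list were called lower. The list had 2 calls without p53-RBPJ replicate 3 or 4 or PDGF-p53-RBPJ replicate 2 or 3, and 1 without PDGF-p53-RBPJ replicate 1. It had 1 on the housekeeping scale, where the median was -0.46, and 1 after centring per chromosome. That centring ended the calls of Sc5d on chromosome 9, Fdft1 on chromosome 14, Fdps and Pmvk. No gene of the list was called with the sex term.

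The promoters of 3 of these genes are shown because cholesterol enzymes are known to share a control by SREBP factors together with NF-Y, which binds CCAAT. The 250 bases before the RefSeq start (build GRCm38.p6) are given in the direction of the gene, with CCAAT or its reverse complement ATTGG, and TCACNCCAC or GTGGNGTGA, one form of the sterol element, in capitals.
Hsd17b7 (chr1:169969206-169969455, minus strand): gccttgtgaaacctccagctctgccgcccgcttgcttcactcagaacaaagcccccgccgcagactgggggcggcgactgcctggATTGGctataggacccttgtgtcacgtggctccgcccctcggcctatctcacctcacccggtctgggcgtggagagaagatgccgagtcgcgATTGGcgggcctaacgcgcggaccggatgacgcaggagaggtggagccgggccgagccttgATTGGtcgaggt
Sc5d (chr9:42264301-42264550, minus strand): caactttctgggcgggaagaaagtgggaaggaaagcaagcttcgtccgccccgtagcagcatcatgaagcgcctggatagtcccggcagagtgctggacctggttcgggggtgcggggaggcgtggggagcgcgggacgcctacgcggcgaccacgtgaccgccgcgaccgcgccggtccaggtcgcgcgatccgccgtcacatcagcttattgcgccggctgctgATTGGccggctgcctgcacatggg
Hmgcs1 (chr13:119690101-119690350, plus strand): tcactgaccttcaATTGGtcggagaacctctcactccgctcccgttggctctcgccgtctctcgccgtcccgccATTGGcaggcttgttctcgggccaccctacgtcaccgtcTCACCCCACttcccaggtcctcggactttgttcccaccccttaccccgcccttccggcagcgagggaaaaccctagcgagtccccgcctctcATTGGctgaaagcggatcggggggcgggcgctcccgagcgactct
CCAAT on either strand was found in at least 1 window of all 16 cholesterol genes of the list that have an entry, against 37.5% of 27025 genes. The sterol form was found in 1 of the 16, Hmgcs1, against 1.22% of all genes. A match is a description of letters, and binding was not measured.

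Fatty acid synthesis followed in 3 of 16 genes, against 2.63% of all genes called lower, with a median of -0.35. Scd1, the stearoyl-CoA desaturase, was at 7.97, 8.59, 7.43 and 7.72 against 9.87, 9.25, 9.52 and 8.82 (-1.44 ± 0.26, limma adjusted p = 0.00737), with no overlap and a call in every fit that left out 1 array. The elongase genes Elovl5 (-0.70) and Elovl6 (-0.63) kept their calls in 2 fits each, and both were lost without p53-RBPJ replicate 3 or 4 or PDGF-p53-RBPJ replicate 1, 2 or 3 (up to 0.103 and 0.115), Elovl5 also without p53-RBPJ replicate 1 and Elovl6 without PDGF-p53-RBPJ replicate 4. The list had 1 call without p53-RBPJ replicate 3 or 4 or PDGF-p53-RBPJ replicate 1, 2 or 3. Elovl5 lies on chromosome 9 and lost its call after centring per chromosome (0.237). With the sex term none of the 3 was called.

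Genes of the mesenchymal glioma state, which overlaps with wound and inflammatory programmes, were lower for 4 of 21, with a median of -0.40. The share called lower over all genes was 2.63%. S100a6, a calcium-binding protein, was at 8.24, 8.88, 8.82 and 7.91 against 9.73, 9.83, 9.86 and 9.23 (-1.20 ± 0.22, limma adjusted p = 0.00785), with the groups apart. Timp1 (-1.30), Stat3 (-0.81) and Tnfrsf1a (-0.81) were called in 1, 2 and 3 of the fits that left out 1 array, each lost without p53-RBPJ replicate 1 or 3 or PDGF-p53-RBPJ replicate 1, 2 or 3 (adjusted p up to 0.169, 0.103 and 0.113). Timp1 was also lost without p53-RBPJ replicate 2, and Timp1 and Stat3 without p53-RBPJ replicate 4. The list had 1 call without p53-RBPJ replicate 1 or 3 or PDGF-p53-RBPJ replicate 1, 2 or 3, and 2 without p53-RBPJ replicate 4. Related to it, Zeb1, a transcription factor of mesenchymal change, was at 9.71, 9.28, 9.15 and 9.77 against 10.90, 10.63, 10.96 and 10.11 (-1.18 ± 0.20, limma adjusted p = 0.00426), with no overlap. None of these 5 genes stayed called with the sex term.

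Markers of other cells that dissection can bring along gave few calls. The shares over all genes were 2.63% called lower and 0.637% called higher. None of 16 homeostatic microglia genes was called, with 15 negative differences, a median of -0.41 and list means of 6.74 to 7.15 without PDGF against 7.12 to 7.48 with it. The lowest p among them belonged to Bin1 (-0.72, limma adjusted p = 0.0844) and Tmem119 (-0.47, limma adjusted p = 0.0926). Of 24 endothelial genes 21 had negative differences, with a median of -0.20, and the transporter gene Abcg2 was called lower. Of 33 macrophage and phagocyte genes 3 were called lower, led by Itgam (-1.20, limma adjusted p = 0.0138), the integrin chain of myeloid cells, which lost its call without PDGF-p53-RBPJ replicate 3 (0.0503). That list had no call without PDGF-p53-RBPJ replicate 3 and 1 without p53-RBPJ replicate 3 or PDGF-p53-RBPJ replicate 1. None of 20 lymphocyte, 14 neutrophil and mast cell or 16 choroid plexus and ependyma genes was called. Among 16 genes of mural cells 3 were lower, Mcam (-1.28, limma adjusted p = 0.0156), Tagln (-0.83, limma adjusted p = 0.0261) and Pdgfrb. Mcam lost its call without PDGF-p53-RBPJ replicate 3 (0.06), and Tagln without p53-RBPJ replicate 1 or 4 or PDGF-p53-RBPJ replicate 2 or 3 (up to 0.0917). The mural list had no call without PDGF-p53-RBPJ replicate 3, 1 without p53-RBPJ replicate 4 or PDGF-p53-RBPJ replicate 2, and 5 without PDGF-p53-RBPJ replicate 4. All 3 genes lie on chromosome 9 or 18 and none was called after centring per chromosome (0.0757, 0.184 and 0.425). No gene of the macrophage, mural or endothelial lists was called with the sex term. Interferon and MHC class I genes gave no call among 29, while their mean ran from 6.36 to 8.91 over the p53-RBPJ arrays and from 6.35 to 7.79 with PDGF.

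Single members of other lists were called as well, where 2.63% of all genes were called lower and 0.637% higher. Axon guidance genes were lower for Sema6a (-1.42 ± 0.25, limma adjusted p = 0.00547), a semaphorin of chromosome 18, Plxna4 (-0.85), a semaphorin receptor, and Slit2. Sema6a was called with every single array left out. Higher were Tyro3 (0.52), a receptor tyrosine kinase, Bmpr1b (0.93), a BMP receptor, and Sox21 (0.77), a transcription factor of neural progenitors. Among 21 neuroblast genes 3 were higher, namely Cd24a, Dlx6 and Stmn1 (0.42), a regulator of microtubules. Another 3 were lower, namely Dcx and the adhesion genes Nrxn3 (-1.11) and Ncam1 (-0.62). No neuroblast gene was called without PDGF-p53-RBPJ replicate 3 or with the sex term. Lower receptor and growth factor genes were Gabrb2 (-1.73) and Grik4 (-0.58), subunits of GABA and kainate receptors, and Fgf12 (-1.02), an intracellular FGF relative. Cdkn2d (-0.61), a CDK inhibitor, Plk2 (-0.86), a p53-responsive kinase, and Id2 (-0.85), an inhibitor of bHLH factors, were lower too. So were Ccl12 (-1.83), a chemokine, Cd9 (-0.81) and Ctsl (-0.50) of the macrophage list, Abcg2 (-0.66), Itgav (-1.05), an integrin chain, Pkm (-0.63), a glycolytic enzyme, and Cox5a (-0.56) and Atp5a1 (-0.70) of the respiratory chain. Apart from Sema6a, the 21 genes with values in these sentences had limma adjusted p from 0.0199 to 0.0496 and depended on single arrays, with a highest adjusted p of 0.0715 to 0.171 when 1 was left out. All 21 lost their calls without PDGF-p53-RBPJ replicate 3, and all but Ncam1 without PDGF-p53-RBPJ replicate 1. All but Nrxn3, Gabrb2, Id2, Ccl12, Cd9 and Itgav lost it without PDGF-p53-RBPJ replicate 2, and Gabrb2 and Abcg2 without PDGF-p53-RBPJ replicate 4. Without p53-RBPJ replicate 1 the calls of Plxna4, Gabrb2, Grik4, Plk2, Ctsl, Pkm and Atp5a1 were lost. Without p53-RBPJ replicate 2 the calls of Plxna4, Gabrb2, Fgf12, Cdkn2d, Plk2, Id2, Ctsl, Abcg2, Pkm and Atp5a1 were lost. Without p53-RBPJ replicate 3 the calls of all 21 but Plxna4, Nrxn3, Gabrb2, Fgf12 and Ccl12 were lost. Without p53-RBPJ replicate 4 the calls of all 21 but Ncam1, Plk2, Ccl12, Cd9 and Itgav were lost. None of these 21 genes nor Sema6a (0.0672) was called with the sex term.

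Set beside normal brain, the leading genes took different courses. Kit was at 7.46 ± 0.59 (SD, n = 4) in normal brain and 8.25 ± 0.47 in PDGF-p53 tumours, against 10.24 ± 1.32 in p53-RBPJ and 7.83 ± 0.26 in PDGF-p53-RBPJ tumours. Ccnd2 was at 7.33 ± 0.46 in p53-RBPJ tumours, 9.39 ± 0.30 in PDGF-p53-RBPJ tumours 9.60 ± 0.51 in PDGF-p53 tumours, with 7.24 ± 0.25 in normal brain. Mras stood at 6.89 ± 0.19, 8.69 ± 0.39 and 8.66 ± 0.45 in the same order of tumours and at 9.22 ± 0.10 in normal brain. Enpp6 was at 4.89 ± 0.45, 7.22 ± 0.11 and 5.77 ± 0.93, against 6.37 ± 0.50 in normal brain. Fzd7 was at 8.55 ± 0.20, 7.24 ± 0.45 and 7.42 ± 0.22, against 7.58 ± 0.24 in normal brain. The comparisons share arrays, so the values are given side by side with no test between them.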

How the data were processed

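Total RNA of 16 arrays was measured on an Affymetrix expression platform. The values are log2 intensities that the authors deposited; the submitters' processing notes name RMA and oligo, with versions not given in the sources used here. RMA scales arrays to a common distribution, so differences are relative to the other genes of an array. For each gene with 1 symbol in the platform annotation, the probe set with the highest mean was used (19938 genes). limma 3.58.1 in R 4.3.3 was fitted to 4 group means over all 16 arrays (lmFit, eBayes), and p-values were adjusted by Benjamini-Hochberg over all genes. The 15 largest called rises and falls without overlap were named, then the engineered genes, all Notch target and PDGF axis genes, and up to 4 called genes of each list with the lowest adjusted p. Where a list had no call, up to 2 genes with the lowest p were to be named, which the text does for some of these lists. Genes named beyond this rule, such as Hmgcs1, Fdft1, Kcnd3, Hoxa10, Xist, Uty and those of single-array runs, were chosen after their values were seen. Members, gene lists and named genes were chosen with earlier results of these data known. The labels do not say that replicate numbers pair the samples, and the values below cannot settle it. Deviations of same-numbered arrays correlated at -0.11, -0.04, 0.16 and 0.06, and those of other-numbered arrays from -0.17 to 0.20. Array medians lay between 5.97 and 6.06, and precision is limited by having 4 arrays a group. The fitting steps were tested on simulated data. Promoter sequences came from RefSeq. The p53 gene is not reported here.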

Additional observations from a re-analysis of the deposited data

Results flagged for a closer look

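In 29 of 376 groups of 4 arrays tested, 1 array stood apart from the other 3 by Dixon's gap test, set so that chance gives about 1 in 20 groups. Some of the genes tested were chosen after their values were seen, and lists share genes. The count of 29 therefore cannot be compared with that rate. Among p53-RBPJ arrays, replicate 3 was the lowest for Kit (8.27), Pdgfra (10.77), Hsd17b7 (7.11) and the mean of the oligodendrocyte precursor list (8.24), and the highest for Mgst1 (8.77), Gabrb2 (8.57) and Ncan (8.33). Replicate 1 was the highest for Pdgfa (10.70), Fam20c (10.84), Zfp157 (12.24) and the means of the PDGF axis (7.76) and proliferation lists (8.88), and the lowest for the erythroid list, which held 1 measured gene (7.03). Replicate 2 was the highest for Ppat (11.78) and the lowest for Irx2 (7.08). Replicate 4 was the highest for Bin1 (7.59).

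Among PDGF-p53-RBPJ arrays, replicate 4 was the lowest for Gng3 (9.51), Scn3a (7.11), Atp5a1 (10.28) and the cholesterol genes Fdps (7.84), Fdft1 (8.07) and Hmgcs1 (8.34), and the highest for Clock (9.03). Replicate 3 stood apart for Xist (11) and Uty (3.20), replicate 2 for Hhipl2 (7.68) and Ptch1 (8.51), and replicate 1 for Shtn1 (5.94) and Fam20c (6.44).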

How the results depend on the processing

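The count of 651 called genes (127 higher, 524 lower) fell to 395 (58 and 337) with the 8 arrays of both groups alone, to 379 (67 and 312) with the 12 tumour arrays, to 404 (203 and 201) with housekeeping centring, to 61 (13 and 48) with the sex term, to 13 (2 and 11) with the PDGF-p53-RBPJ array of the female pattern alone, where the lone array is assumed to vary like the other groups, to 164 (41 and 123) without both p53-RBPJ arrays of the raised chromosome 6 run, and to 432 (164 and 268) when centred per chromosome. It was 1197 (310 and 887) with array weights, and repeated quantile normalisation gave 194 higher genes. Leaving out 1 array gave between 176 (without PDGF-p53-RBPJ replicate 3) and 802 (without PDGF-p53-RBPJ replicate 4) genes, with 23 to 186 higher and 153 to 616 lower. With the replicate block 682 genes were called (118 and 564), 578 of them shared. The labels do not say that the numbers pair the samples, so this is given only as a count. Pdgfb (-0.49) passed the threshold with array weights (-0.55). The exact permutation test of Pdgfb (-0.49) gave an unadjusted p of 0.0286, which every gene without overlap reaches (9.69% of all genes).

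Some differences changed sign. Leaving out 1 array, Rbpj ranged from -0.01 to 0.10, Hes1 from -0.05 to 0.10, Hey2 from -0.15 to 0.47, Heyl from -0.02 to 0.08, Nepro from -0.36 to 0.01, Pdgfa from -0.08 to 1.17 and Pdgfd from -0.38 to 0.02. Without both arrays of the chromosome 6 run Rbpj was at -0.03, Fabp7 at 0.01 and Nepro at 0.05. Hes1 was at -0.05 with array weights and at -0.23 with the array of the female pattern alone, Heyl at -0.05 with the sex term, and Fabp7 at 0.04 with housekeeping centring. Centring per chromosome, added after seeing the data, gave -0.07 for Heyl, 0.05 for Nepro and 0.16 for Pdgfd. The causes were not tested. All of these reversals concern genes that were not called. The 4 genes Fzd7, Mras, Acsbg1 and Camk2b kept their calls in every alternative run.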

Other observations

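Probe sets with no gene symbol or with several were tested apart. Of 13767 such probe sets limma called 0 higher and 1 lower, and 1313 had an unadjusted p under 0.05. In p53-RBPJ replicate 1 a run of 6 neighbouring genes from Arxes1 to Tceal5 was lowered, with a median deviation of -2.21 from the 12 tumour arrays. In p53-RBPJ replicate 2 the runs from Ifi206 to Ifi203, Psmb9 to H2-Ab1, Gm4951 to BC023105 and Gbp8 to Gbp11, genes of the interferon response and antigen presentation, were raised by medians of 1.55, 1.67, 2.83 and 3.41.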
